A study of Mus musculus with 4 samples.

Results

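RNA of 10 genes of MHC class I antigen presentation was measured in mouse embryonic stem cells (ESCs) labelled Naa10-KO and in wild-type (WT) ESCs, with 2 libraries per genotype. The genes were H2-T23, H2-K1, H2-D1, B2m, Tap1, Tapbp, Psmb8, Psmb9, Psme1 and Psme2, and each was found by its symbol in 1 of the 14099 named rows of the expression tables. The set was chosen by pathway and by the RPKM values of H2-T23 and Psme2, which were lower in Naa10-KO in earlier results of these libraries. The difference between Naa10-KO and WT is therefore given for the 10 genes as a description, with no test.

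Naa10 carries the catalytic activity of NatA, an enzyme complex that adds acetyl groups to the N-termini of proteins during translation. The Naa10-KO cells and their WT littermates both came from C57BL/6 females heterozygous for the Naa10 knockout that were mated with WT males of JF1, an inbred strain distant from C57BL/6. Cells of both genotypes were grown in N2B27 medium with a Mek inhibitor, a Gsk3 inhibitor and LIF, first for 5 passages on irradiated mouse embryonic fibroblasts and then for 5 passages without them. Whether the replicates of a genotype were separate lines or cultures of 1 line is not stated, nor is the sex of the lines, so spreads and p-values describe these libraries only. Values are RPKM, read numbers corrected for transcript length and for how many reads each library had, a measure that allows levels of different genes to be compared.

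MHC class I molecules show peptides from inside the cell to CD8 T cells and to receptors of natural killer cells. Proteasomes cut proteins into peptides, the TAP transporter carries the peptides into the endoplasmic reticulum, and tapasin holds an empty class I heavy chain beside TAP until a peptide binds. Heavy chains reach the surface with beta-2 microglobulin, their invariant light chain. Interferons raise the transcription of most of these genes in differentiated cells, whereas pluripotent cells are known for little class I at their surface.

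The promoters are shown first because class I genes share a known set of promoter elements and because the 3 heavy chain genes differed in how Naa10-KO compared with WT. RefSeq windows of 300 bases, from 250 bases before an annotated transcript start to 50 after it, were available on GRCm38.p6 for all 10 genes, and the first listed window of each was used. The heavy chain genes are on the same chromosome, H2-T23 at chr17:36032652-36032951 on the minus strand, H2-K1 at chr17:34000298-34000597 on the minus strand and H2-D1 at chr17:35262844-35263143 on the plus strand. Capitals mark, on either strand, the core of an interferon response element (GAANNGAAA), the core of a cyclic AMP element (TGACG) and the CCAAT box (CCAAT).
H2-T23: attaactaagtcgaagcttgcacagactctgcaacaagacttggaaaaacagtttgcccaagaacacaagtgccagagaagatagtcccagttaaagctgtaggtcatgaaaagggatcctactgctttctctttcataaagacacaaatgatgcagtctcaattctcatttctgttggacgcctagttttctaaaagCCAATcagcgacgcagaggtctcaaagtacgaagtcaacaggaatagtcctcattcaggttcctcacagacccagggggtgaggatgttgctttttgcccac
H2-K1: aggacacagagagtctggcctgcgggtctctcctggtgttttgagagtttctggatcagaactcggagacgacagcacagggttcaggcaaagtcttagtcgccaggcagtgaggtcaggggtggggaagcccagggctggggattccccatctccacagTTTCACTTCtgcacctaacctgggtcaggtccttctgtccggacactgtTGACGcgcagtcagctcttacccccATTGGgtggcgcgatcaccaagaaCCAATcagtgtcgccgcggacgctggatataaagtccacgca
H2-D1: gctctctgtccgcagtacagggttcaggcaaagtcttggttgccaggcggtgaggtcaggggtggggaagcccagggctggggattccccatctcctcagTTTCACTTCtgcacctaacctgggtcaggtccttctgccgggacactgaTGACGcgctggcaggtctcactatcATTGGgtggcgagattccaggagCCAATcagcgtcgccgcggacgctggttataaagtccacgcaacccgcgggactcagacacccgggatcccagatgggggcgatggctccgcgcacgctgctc
H2-K1 and H2-D1 both held the interferon core, as TTTCACTTC, at -90 to -82 in H2-K1 and at -150 to -142 in H2-D1, counted from 0 at the transcript start on which each window is built. These positions are not on the same footing, because the H2-K1 window is built on a start inside the gene's full RefSeq span, which reaches further upstream than the window, whereas the other 9 windows are built on the outer end of their gene's span. The H2-T23 window held a CCAAT box at -52 to -48 and no match to the letters of the other marked elements. It did hold tttctctttc, which has a base more than the interferon core as searched. That longer form was not searched, so H2-T23 is not shown to lack an interferon element.

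Psme1 and Psme2, which encode the paired subunits of a proteasome activator, lie near each other on chromosome 14, with promoter windows at chr14:55578244-55578543 on the plus strand and chr14:55591052-55591351 on the minus strand. They are shown because Psme2 was lower in Naa10-KO by much more than Psme1. The capitals mark the same elements.
Psme1: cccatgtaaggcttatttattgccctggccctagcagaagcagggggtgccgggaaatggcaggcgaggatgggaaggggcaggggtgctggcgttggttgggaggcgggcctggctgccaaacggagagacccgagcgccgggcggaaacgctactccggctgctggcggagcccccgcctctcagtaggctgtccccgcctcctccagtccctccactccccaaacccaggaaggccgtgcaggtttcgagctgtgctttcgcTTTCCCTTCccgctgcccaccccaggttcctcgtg
Psme2: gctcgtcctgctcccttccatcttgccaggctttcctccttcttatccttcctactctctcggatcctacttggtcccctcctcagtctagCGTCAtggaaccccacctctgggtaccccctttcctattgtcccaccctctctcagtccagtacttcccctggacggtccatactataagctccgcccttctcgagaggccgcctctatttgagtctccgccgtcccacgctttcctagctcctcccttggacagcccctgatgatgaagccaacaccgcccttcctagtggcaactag
The Psme1 window held an interferon core at 15 to 23 and the Psme2 window a cyclic AMP core at -159 to -155.

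Over the 10 windows, the interferon core in the letters searched was found in 3 (H2-K1, H2-D1 and Psme1). It was found in 7.56% of 27025 RefSeq promoter windows of the same length. The H2-T23 and B2m windows held tttctctttc and gaaactgaaa, each with a base more than this core allows. Neither is counted, so the 3 windows are not a count of all interferon elements. The cyclic AMP core was in 6 of 10, against 21% of all windows, and the CCAAT box in 7 of 10, against 37.9%. A kappa B core (GGGNNNNNCC) was in 7 of 10, against 50.4% of all windows, and a gamma-activated site (TTCNNNGAA) was in 1, that of Psmb8, against 8.47%. No match overlapped a match of another motif, though kappa B matches on opposite strands overlapped each other in places. Psmb9 and Tap1 are transcribed away from each other, and their windows shared 275 bases, so the matches in both belong largely to the same stretch. The H2-K1 and H2-D1 windows are nearly the same sequence around their matches. The counts out of 10 therefore hold fewer independent matches than genes. These are matches of letters, and no binding was measured. Whether the elements bear on the differences between Naa10-KO and WT was not tested.

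How far reads could be assigned to 1 gene differs between the 10 genes. Of the 50-base stretches in the longest coding transcript of each gene in GENCODE M21, 59.3% of those of Psme2 were also found in transcripts of Psme2b, an intronless copy. For H2-T23 the share found in transcripts of other genes was 29.8%, with H2-T-ps and H2-Q1 sharing most. It was 14.3% for H2-D1, with H2-Q1 and H2-Q7 sharing most, and 8.79% for H2-K1, with H2-D1 sharing most. Tapbp shared 21%, most of it with the overlapping gene model Gm19412, and Psmb9 shared 12.5%, all with Tap1. Psme1 shared 14.1%, most of it with Gm7776. Tap1 and Psmb8 shared 6.47% and 5.83%, and no stretch of B2m was found elsewhere. No source used here says how reads that match several genes were counted. The values of all these genes but B2m are uncertain to that extent, those of Psme2, H2-T23 and Tapbp most. Overlapping genes can share reads where strand is not recorded, and no label states a stranded protocol. A930015D03Rik, which overlaps H2-T23, had 2.49 and 1.29 RPKM in Naa10-KO, against 3.06 and 2.62 RPKM in WT. H2-D1 was deposited in a row joined with H2-L and LOC547349, and Tapbp in a row joined with Zbtb22. Heavy chain genes also differ between mouse strains, and reads of the JF1 copies may map less well to mm9, which is C57BL/6 sequence; the part of this in the levels was not tested.

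**Figure D1:**
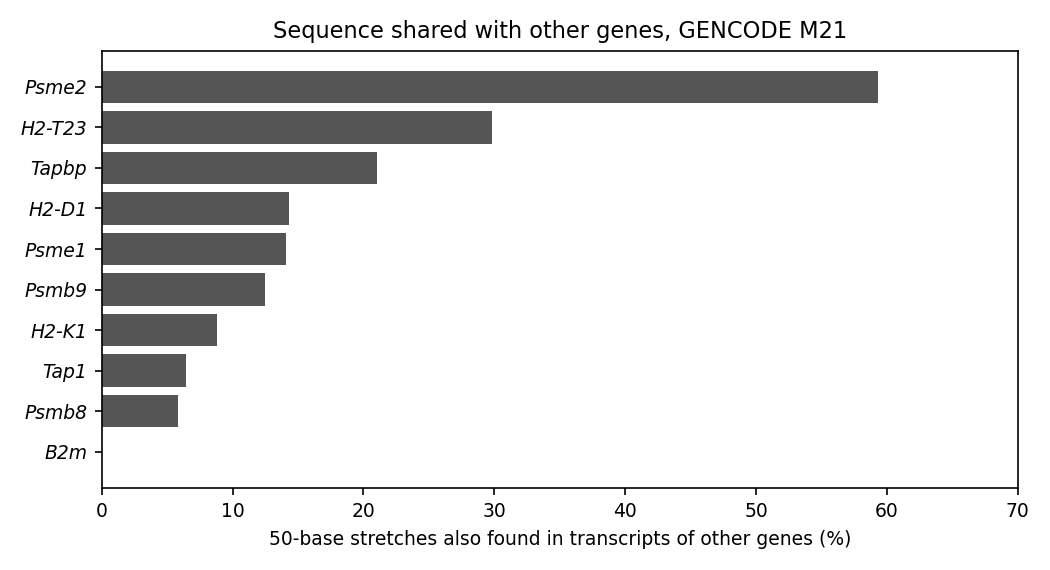
Share of each gene's 50-base transcript stretches that also occur in transcripts of other genes, in percent, from GENCODE M21. Psme2 had the highest share, 59.3%, and B2m had none.

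The libraries were checked before their values were compared. The row that joins Naa10 with its neighbour Renbp had 28.9 and 34.4 RPKM in the Naa10-KO libraries, against 105 and 106 RPKM in WT. All 10 markers of pluripotent cells were present in every library, at 30.7 to 2578 RPKM, and they summed to 4199 and 5082 RPKM in Naa10-KO replicates 1 and 2, against 4952 and 5036 RPKM in WT. Of these markers, 7 were below both WT libraries in Naa10-KO replicate 1 and 8 were above both in replicate 2. Steps in microRNA row values put the depth of Naa10-KO replicates 1 and 2 at roughly 1.46 and 1.68 times that of WT replicate 1. WT replicate 2 was put at 1.02 times, while absolute depths are not known. Over the 11912 rows that reached 1 RPKM in at least 2 libraries (the tested rows), replicates differed by a median of 0.25 on the log2(RPKM + 1) scale in Naa10-KO and of 0.054 in WT. The WT libraries held equal values in 19 tested rows and were kept as separate libraries. Naa10-KO replicate 1 stood apart in markers of fibroblasts, the feeder cell type, 13 of 15 of which were above both WT libraries. In bulk RNA, a change in the number of cells of a type and a change of RNA per cell cannot be told apart.

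B2m had the highest level of the 10 genes in every library, and Tap1, Psmb8 and Psmb9 had the lowest. In Naa10-KO the order of the means ran from B2m (215 RPKM) over Psme1 (75.4), Psme2 (45.3), the Tapbp row (26.3), the H2-D1 row (22.96), H2-K1 (17.0) and H2-T23 (13.4) to Psmb9 (2.13), Tap1 (2.02) and Psmb8 (1.91). In WT it ran from B2m (130 RPKM) over Psme1 (90.5), Psme2 (87.2), H2-T23 (41.4), the Tapbp row (23.3), H2-K1 (22.2) and the H2-D1 row (21.2) to Psmb9 (3.20), Tap1 (2.43) and Psmb8 (1.099). Neighbours whose 2 libraries overlapped were Psme1 and Psme2 in WT, and in Naa10-KO the run from Tapbp to H2-D1 to H2-K1 to H2-T23 and the run from Psmb9 to Tap1 to Psmb8. H2-T23 thus had the lowest mean of the heavy chain rows in Naa10-KO and the highest in WT. Its ratio to H2-K1 was 0.554 and 1.24 in Naa10-KO replicates 1 and 2, against 1.88 and 1.85 in WT. In each library between 61.7% and 84.8% of all named rows were lower than the heavy chain rows, whereas for Tap1, Psmb8 and Psmb9 the share was between 14.6% and 34.9%.

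**Figure D2:**
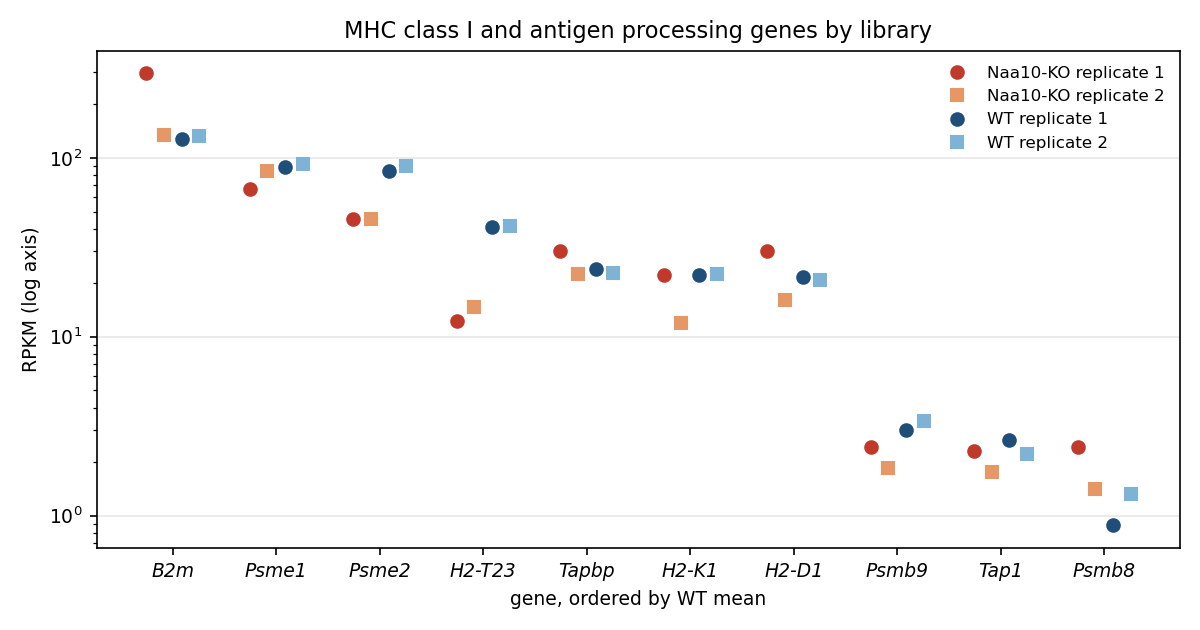
Level of each gene in RPKM on a log axis, with the 2 Naa10-KO libraries (red and orange) left of the 2 WT libraries (dark and light blue), ordered by the WT mean. H2-T23 and Psme2 lay lower in both Naa10-KO libraries than in either WT library, and the levels spanned from 0.882 RPKM (Psmb8, WT replicate 1) to 296 RPKM (B2m, Naa10-KO replicate 1).

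H2-T23 and Psme2, the genes whose earlier results led to the set, were lower in both Naa10-KO libraries by amounts that both libraries shared. H2-T23 encodes Qa-1, a nonclassical heavy chain of low polymorphism that presents leader peptides of other class I molecules to the CD94-NKG2A receptor of natural killer cells. It had 12.3 and 14.6 RPKM in Naa10-KO replicates 1 and 2, against 41.3 and 41.6 RPKM in WT replicates 1 and 2. Both Naa10-KO values were far below both WT values, at 29.6% and 35.3% of the WT mean. The mean was 13.4 ± 1.67 RPKM in Naa10-KO and 41.4 ± 0.219 RPKM in WT (SD, n = 2 each), a ratio of 0.325 and a difference of -1.56 on the log2(RPKM + 1) scale.

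Psme2 encodes the beta subunit of PA28, a ring of alpha and beta subunits that caps the proteasome and opens its channel for peptides. It had 45.4 and 45.2 RPKM in the Naa10-KO libraries, against 84.5 and 89.9 RPKM in the WT libraries. The groups did not overlap, and the Naa10-KO libraries were nearly equal, at 52.1% and 51.8% of the WT mean (means 45.3 ± 0.171 and 87.2 ± 3.81 RPKM in Naa10-KO and WT, SD, n = 2 each). The row that holds the copy Psme2b, joined with 9930111J21Rik1 and 9930111J21Rik2, had 6.72 and 7.14 RPKM in Naa10-KO, against 10.098 and 10.9 RPKM in WT.

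Psme1, the alpha subunit of the same ring, differed much less. It had 66.6 and 84.2 RPKM in Naa10-KO, against 88.8 and 92.1 RPKM in WT. Both Naa10-KO libraries were below both WT libraries, at 73.6% and 93.1% of the WT mean, and the Naa10-KO libraries lay further from each other than replicate 2 lay from WT. Taken as a ratio within each library, Psme2 stood at 0.682 and 0.536 of Psme1 in Naa10-KO, against 0.952 and 0.976 in WT. The paired subunits thus had nearly equal RNA levels in WT, and the beta subunit had less RNA than the alpha subunit in both Naa10-KO libraries. Both share sequence with other genes, which limits this ratio.

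The classical heavy chains and their light chain did not share the pattern of H2-T23, and their Naa10-KO libraries disagreed. H2-K1, which encodes the classical heavy chain H-2K, had 22.1 and 11.8 RPKM in Naa10-KO replicates 1 and 2, against 21.98 and 22.4 RPKM in WT. Replicate 1 lay between the WT libraries and replicate 2 lay at 53.3% of the WT mean. The joined row of H2-D1, which encodes the classical heavy chain H-2D, had 29.9 and 16.0 RPKM in Naa10-KO, against 21.6 and 20.9 RPKM in WT. Replicate 1 was above both WT libraries and replicate 2 below both, at 141% and 75.2% of the WT mean.

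B2m, the light chain gene, had 296 and 134 RPKM in Naa10-KO, against 128 and 133 RPKM in WT. Both Naa10-KO values were above both WT values, but replicate 2 by little, at 103% of the WT mean against 228% for replicate 1. Its difference of 0.61 on the log2 scale was 0.036 without Naa10-KO replicate 1. The classical heavy chain rows summed to 0.176 and 0.208 of B2m in Naa10-KO, against 0.341 and 0.326 in WT, so this ratio was lower in both Naa10-KO libraries. The ratio of H2-K1 to the H2-D1 row was 0.739 and 0.741 in Naa10-KO, against 1.02 and 1.08 in WT. The Naa10-KO libraries thus agreed on the balance between the classical rows while differing 1.87-fold in the level of each.

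The library with high B2m and H2-D1 was the one with high fibroblast markers and the lower sum of pluripotency markers. The 15 markers summed to 1010 and 565 RPKM in Naa10-KO replicates 1 and 2, against 544 and 551 RPKM in WT replicates 1 and 2. All 15 were higher in Naa10-KO replicate 1 than in replicate 2, and 11 of 15 were below both WT libraries in replicate 2. Vim, an intermediate filament gene of mesenchymal cells, had 386 and 137 RPKM in Naa10-KO, against 118 and 128 RPKM in WT, and the collagen gene Col1a2 had 15.9 and 2.18 RPKM, against 6.58 and 7.60 RPKM in WT. Single-gene rows of 7 markers of immune cells summed to 57.9 and 60.2 RPKM in Naa10-KO, against 48.9 and 46.4 RPKM in WT, and most of that was Laptm5 (34.3 to 48.0 RPKM). Ptprc, the pan-leukocyte marker, was not analysed here. The part of these marker differences in the class I values was not tested. H2-T23 and Psme2, which led to the set because they were lower in Naa10-KO, were low in both Naa10-KO libraries.

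**Figure D3:**
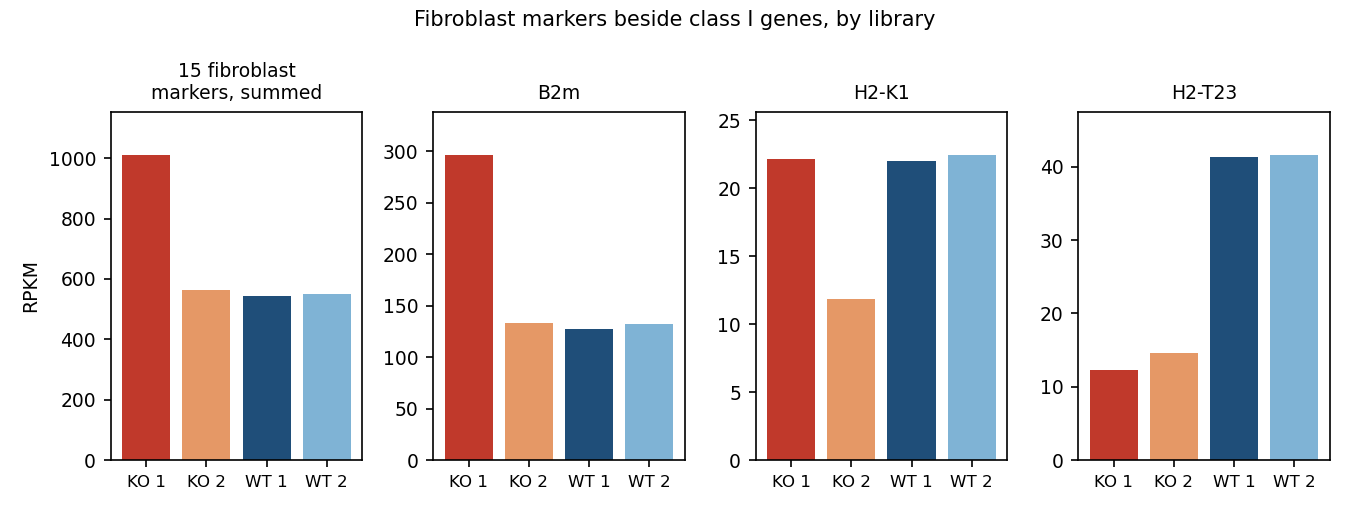
Summed RPKM of 15 fibroblast markers and RPKM of B2m, H2-K1 and H2-T23 in the 2 Naa10-KO libraries (KO 1, KO 2) and the 2 WT libraries (WT 1, WT 2), with 1 bar per library. The marker sum was 1010 RPKM in Naa10-KO replicate 1 and 544 to 565 RPKM elsewhere. In Naa10-KO replicate 2, 11 of the 15 markers were below both WT libraries, which the sum does not show. B2m was also highest in Naa10-KO replicate 1, while H2-T23 was low in both Naa10-KO libraries.

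Of the peptide transport and loading genes, Tap1 and the Tapbp row lay between 71.9% and 130% of the WT mean in the Naa10-KO libraries. Tap1 encodes a subunit of the peptide transporter and had 2.29 and 1.75 RPKM in Naa10-KO, against 2.65 and 2.21 RPKM in WT. Replicate 1 of Naa10-KO lay between the WT values and replicate 2 below them. The joined row of Tapbp, the tapasin gene, had 30.3 and 22.4 RPKM in Naa10-KO, against 23.9 and 22.7 RPKM in WT. Replicate 1 was again above both WT libraries and replicate 2 below both, at 130% and 96.0% of the WT mean.

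The interferon-inducible catalytic subunits of the immunoproteasome were at low levels in both genotypes. Psmb8 encodes the beta-5i subunit and had 2.42 and 1.40 RPKM in Naa10-KO, against 0.882 and 1.32 RPKM in WT. Its Naa10-KO values lay above both WT values, though the WT libraries themselves differed by 0.30 on the log2 scale and the level was low. Psmb9 encodes the beta-1i subunit and had 2.41 and 1.85 RPKM in Naa10-KO, against 3.02 and 3.37 RPKM in WT, with both Naa10-KO values below both WT values. Psmb9 and Psmb8 thus lay on different sides of WT although they sit on either side of Tap1 in the genome.

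Set beside the constitutive subunits that they replace, both made up a small share. Psmb8 was 1.77% and 1.04% of the sum of Psmb8 and the Psmb5 row in Naa10-KO, against 0.746% and 1.01% in WT. Psmb9 was 1.27% and 1.00% of the sum of Psmb9 and Psmb6 in Naa10-KO, against 1.93% and 2.06% in WT. The remaining inducible subunit gene, Psmb10, was 5.17% and 6.66% of the sum of Psmb10 and Psmb7 in Naa10-KO, against 4.41% and 4.74% in WT. The constitutive genes thus gave most of the catalytic subunit RNA in all 4 libraries.

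Over the 10 genes, both Naa10-KO libraries were below both WT libraries in 4 (H2-T23, Psme2, Psme1 and Psmb9), against 34.9% of all tested rows, and above both in 2 (B2m and Psmb8), against 24.4% of all tested rows. In the other 4, at least 1 Naa10-KO library lay between or on the other side of the WT libraries. All 10 rows passed the filter on low values. In a limma fit over all rows, 2 of the 10 were lower past an adjusted p of 0.05 and 0 higher, where 0.546% of all tested rows were lower and 0.218% higher; this is the contrast from which the set was chosen, and nothing is read from the count. It was 0 of 10 with the replicate number as a block, without either WT library, with no filter on low values, and without rows at 0 and small RNA rows. The median difference of the 10 genes was -0.23 on the log2 scale, against -0.056 over all tested rows. By library, the median was -0.031 for Naa10-KO replicate 1, and replicate 2 had -0.35.

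The distance between the Naa10-KO replicates varied widely among the genes. It was 1.14 on the log2 scale for B2m, more than in 96.2% of tested rows, and 0.87 and 0.85 for the H2-D1 row and H2-K1, more than in 92.9% and 92.5%. It was 0.24 for H2-T23, more than in 48.3%, and 0.0076 for Psme2, more than in 1.90%. Naa10-KO replicate 1 was above replicate 2 in 8 of the 10 genes, against 45.3% of all tested rows, and the exceptions were H2-T23 and Psme1.

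**Figure D4:**
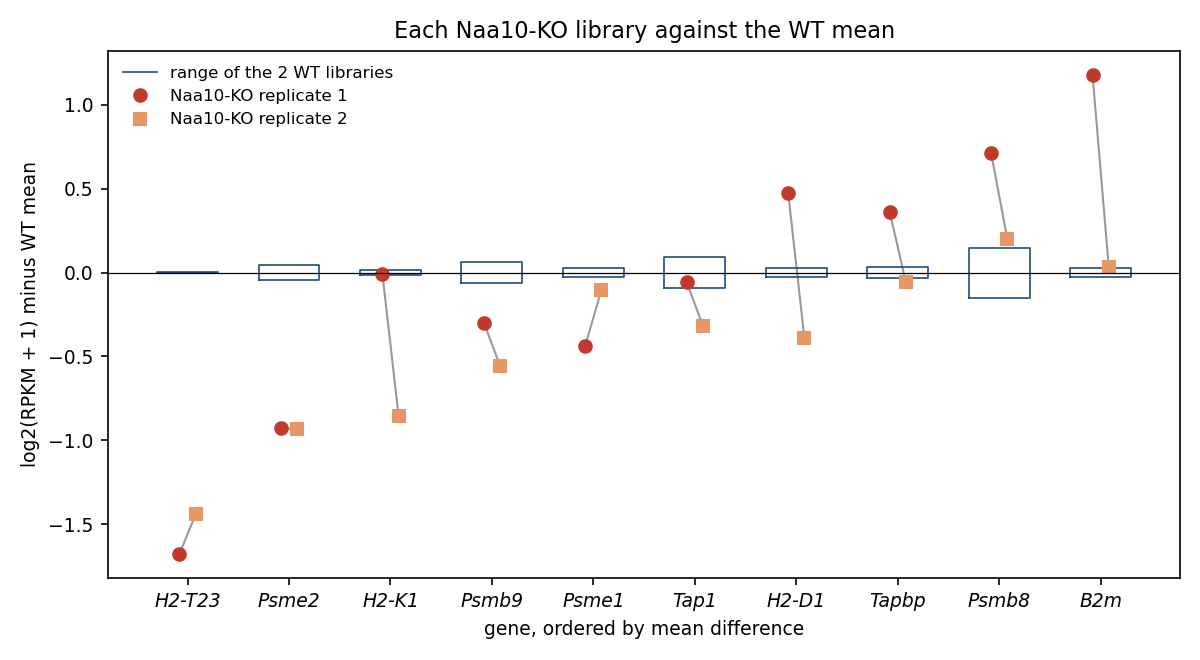
Difference of each Naa10-KO library from the WT mean on the log2(RPKM + 1) scale, ordered by the mean difference, with boxes for the range of the 2 WT libraries. H2-T23 and Psme2 had both Naa10-KO libraries well below the boxes, while the Naa10-KO libraries of H2-D1 and Tapbp lay on opposite sides.

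Other genes of antigen presentation were taken from 7 lists that were drawn up with earlier results of these data known. Of their 113 genes, 78 rows were tested, and 0 passed in limma at an adjusted p of 0.05 in either direction, with a smallest adjusted p of 0.0607; the background was 0.764% of all tested rows. At an unadjusted p under 0.05 there were 13 lower and 8 higher rows, and 2634 of the 11912 tested rows were at that level. In simulated data of the same size, each row had an equal spread in both genotypes. There, 62.0% of rows changed by 1 on the log2 scale and 97.0% of rows changed by 2 were called. Other sizes of change were not simulated. Over all tested rows, the real replicates differed by a median of 0.25 in Naa10-KO and of 0.054 in WT. The simulated shares may therefore not hold for the real libraries.

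The other heavy chain genes were lower in Naa10-KO in all 13 tested rows, with 0 past the threshold, a median log2 difference of -0.28, against -0.056 over all tested rows, and 10 rows with both Naa10-KO libraries below both WT libraries, against 34.9% of all tested rows. Many of them are close copies of each other and a symbol can recur in a joined row, so their values are uncertain. The same reads may count in several rows, so the 13 rows are not 13 independent genes. The share of all tested rows that were lower is not given here. H2-T24, another gene of the T region, had 1.17 and 1.27 RPKM in Naa10-KO, against 3.60 and 3.36 RPKM in WT (log2 difference -1.01, SE 0.12, limma adjusted p = 0.0803). H2-Q4, a gene of the Q region, had 8.18 and 4.49 RPKM in Naa10-KO, against 10.13 and 10.2 RPKM in WT (limma adjusted p = 0.274). H2-K2 had 0.963 and 0.965 RPKM in Naa10-KO, against 1.71 and 1.53 RPKM in WT (limma adjusted p = 0.168).

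Among 18 tested rows of peptide loading and trimming, 12 were lower and 6 higher, with 0 past the threshold and a median log2 difference of -0.056. The largest differences were in close partners of the genes above. Tapbpl, the tapasin relative TAPBPR that edits the peptides of class I molecules, had 3.27 and 3.51 RPKM in Naa10-KO, against 8.35 and 8.39 RPKM in WT (log2 difference -1.095, SE 0.11, limma adjusted p = 0.0607, and 0.0492 without the mean-variance trend). Tap2, the partner of Tap1 in the transporter, had 1.48 and 1.32 RPKM in Naa10-KO, against 3.50 and 3.17 RPKM in WT (log2 difference -0.85, SE 0.12, limma adjusted p = 0.0974). Erap1, which trims peptides in the endoplasmic reticulum, had 2.46 and 1.39 RPKM in Naa10-KO, against 0.880 and 0.948 RPKM in WT (limma adjusted p = 0.237). The general chaperones of this step were at high levels, such as Pdia3, with 233 and 202 RPKM in Naa10-KO, against 223 and 221 RPKM in WT (limma adjusted p = 0.855).

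Of 7 tested rows of constitutive catalytic subunits and other proteasome activators, 4 were higher and 3 lower with 0 past the threshold. Psme3, the activator subunit PA28 gamma, which acts in the nucleus, had 127 and 139 RPKM in its joined row in Naa10-KO, against 112 and 112 RPKM in WT (log2 difference 0.25, SE 0.08, limma adjusted p = 0.194). Psmb6, the constitutive counterpart of Psmb9, had 187 and 183 RPKM in Naa10-KO, against 153 and 160.3 RPKM in WT (limma adjusted p = 0.166). Pomp, an assembly factor of the proteasome, had 138 and 126 RPKM in Naa10-KO, against 151 and 159.9 RPKM in WT (limma adjusted p = 0.228).

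Regulators of class I transcription were lower in 12 and higher in 8 of 20 tested rows, with 0 past the threshold and a median log2 difference of -0.18, against -0.056 over all tested rows. Stat2, a transcription factor of the type I interferon response, had 2.32 and 3.38 RPKM in Naa10-KO, against 8.98 and 8.51 RPKM in WT (log2 difference -1.35, SE 0.18, limma adjusted p = 0.0902). Rela, a subunit of NF-kappa B, had 19.5 and 13.2 RPKM in Naa10-KO, against 9.94 and 9.13 RPKM in WT (limma adjusted p = 0.188). Nlrc5, the transactivator of class I genes, was not analysed here.

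Receptors, kinases and feedback inhibitors of interferon signalling were higher in 6 and lower in 3 of 9 tested rows, with 0 past the threshold. Socs3, a feedback inhibitor of cytokine receptors that LIF induces in ESCs, had 43.9 and 94.0 RPKM in Naa10-KO, against 27.0 and 26.9 RPKM in WT (log2 difference 1.23, SE 0.39, limma adjusted p = 0.198). Socs1, a feedback inhibitor of interferon signalling, had 6.69 and 6.34 RPKM in Naa10-KO, against 8.38 and 10.0 RPKM in WT (limma adjusted p = 0.182). Ifngr1, the ligand-binding chain of the interferon gamma receptor, had 3.19 and 2.26 RPKM in Naa10-KO, against 1.87 and 1.77 RPKM in WT (limma adjusted p = 0.277).

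**Figure D5:**
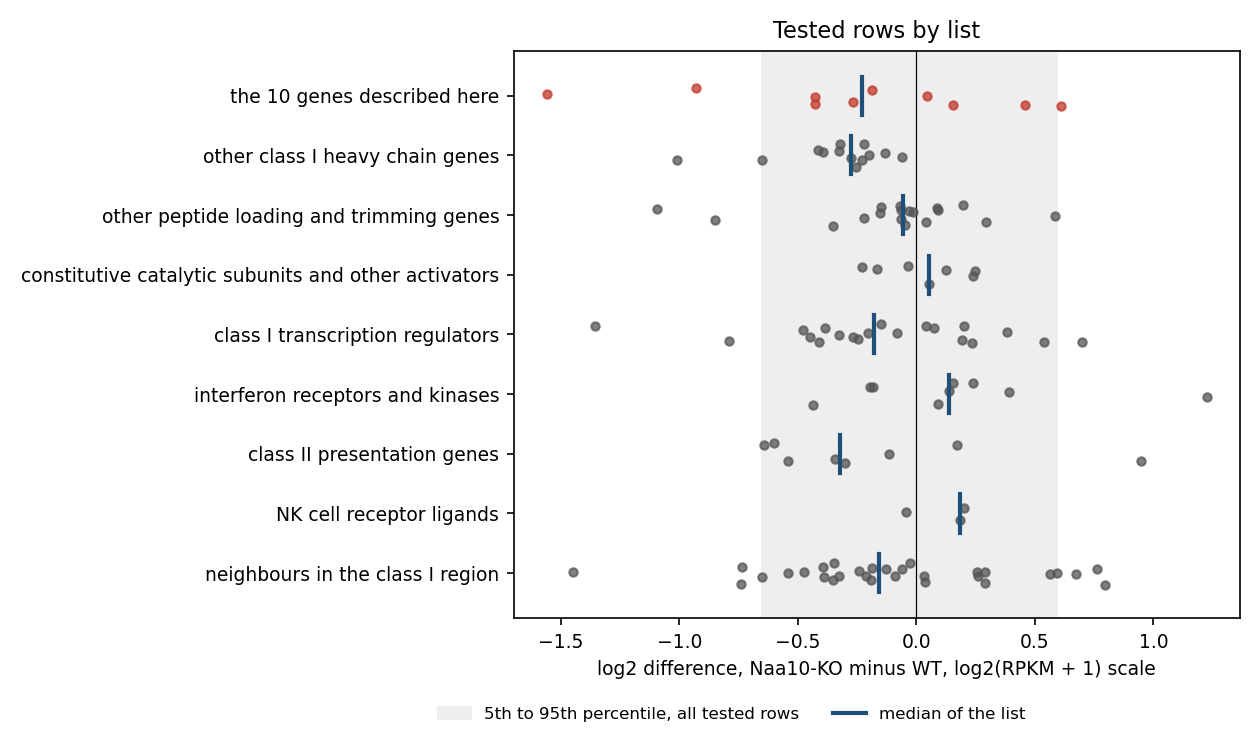
Log2 difference of Naa10-KO minus WT for each tested row (points) by list, with the median of each list (blue bar) and the 5th to 95th percentile of all tested rows (grey band). All 13 other heavy chain rows lay below 0, and H2-T23 had the lowest value of the 10 genes described here, at -1.56.

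The 5 rows whose pattern over the 4 libraries was most like that of H2-T23, by Euclidean distance of log2(RPKM + 1) from the row's own WT mean among 7921 rows, were Cxcr2, Churc1, Lcmt2, Firre and Gm16702, at distances of 0.086 to 0.17. Cxcr2, a chemokine receptor gene, had 4.16 and 4.84 RPKM in Naa10-KO, against 14.5 and 14.7 RPKM in WT. The rows most like Psme2 were Rad54l, Ripply3, Arid4b, Zfp367 and Zfc3h1, at distances of 0.066 to 0.12. Rad54l, a DNA repair gene, had 7.72 and 7.80 RPKM in Naa10-KO, against 15.9 and 16.1 RPKM in WT. These 10 rows were on none of the lists, and with 4 libraries a like pattern is a description only.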

How the data were processed

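The 4 deposited tables hold RPKM, per the file headers, for the same 14099 named rows in 1 library each. Per the submitters' processing notes, the build is mm9 and Cufflinks and bedtools were used, with no roles stated; aligner, annotation and versions: not given in the sources used here. Of the rows, 404 join several symbols, and 323 are listed at 0 in a library, which can be a failed estimate; none of the 10 genes is at 0. Libraries were grouped by title.

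limma 3.58.1 (R 4.3.3), with its trend option, was fitted to log2(RPKM + 1) of the 11912 rows that reached 1 RPKM in 2 or more libraries, with Benjamini-Hochberg adjustment over all of them. This scale understates the changes of low genes. The fit was tested on simulated data. Other steps used Python 3.11.15 and pandas 2.3.3. Relative depth is the most common ratio between libraries over microRNA rows, within 0.3%, simple multiples counted: 14 of 46 rows for Naa10-KO replicate 1, 14 of 50 for Naa10-KO replicate 2 and 29 of 57 for WT replicate 2. Without multiples, 6 rows for Naa10-KO replicate 1, 5 for Naa10-KO replicate 2 and 13 for WT replicate 2 lay at that ratio. The depths are therefore rough. Promoter sequences are RefSeq's (GRCm38.p6), not the files' build.

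The members and lists were chosen with earlier results of these data known. Named genes are Naa10, the 10 members, the 3 rows of each list with the largest difference, every list row past the threshold (0 were), and the 5 rows most like H2-T23 and Psme2; 1 row that the rule names is not reported here, marker lists are given as sums and counts, and A930015D03Rik, Pdia3, Col1a2, Laptm5, Ptprc, Nlrc5, Psmb10 and Psme2b were named after their values were seen. Alternatives were another pseudocount, other filters, other scalings, no trend, each library left out and a replicate block.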

Additional observations from a re-analysis of the deposited data

How the results depend on the processing

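The count of all rows called in Naa10-KO against WT was 91, and it was 40 with no filter on low values, 0 without rows at 0 and small RNA rows (limma, 2626 rows at an unadjusted p under 0.05) and 12 to 7081 with 1 library left out (4938 and 7081 without Naa10-KO replicates 1 and 2, 12 and 15 without WT replicates 1 and 2). The remaining library of a group is then assumed to vary like the other pair, so the count follows the pair that gives the spread. With the replicate number as a block (replicate block) the count was 44. Same-numbered libraries deviated in opposite directions (r = -0.21 across rows, which are not independent), and the numbers crossed as a block, an alternative chosen after seeing the data, gave 133. Of the other antigen presentation rows 0 were called under most alternatives, 1 (Tapbpl, lower) without the mean-variance trend and 0 to 41 with a library left out. The median difference of the 10 genes was -0.35 to -0.031 with a library left out. The count of the 10 genes called was 2, and 0 with no filter, without rows at 0 and small RNA rows, under the replicate block or without either WT library. It was 1 with median scaling or without the trend, and 5 and 7 without Naa10-KO replicates 1 and 2. The sign of the difference was the same under every alternative run for 8 of the 10 genes, and that of H2-D1 and Tapbp turned without Naa10-KO replicate 1. The joined row of H60b and the Raet1 genes had a log2 difference of 0.20, and of -0.21 to 0.62 with a library left out, the lowest without Naa10-KO replicate 1 and the highest without Naa10-KO replicate 2. The cause of these shifts was not tested. Without counts, depth per gene is unknown, which limits Psmb8, Psmb9 and Tap1 most.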

Other observations

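Genes of MHC class II presentation, which ESCs are not known to use, were measured at low levels, with 8 rows tested, 6 of them lower in Naa10-KO and 0 past the threshold (limma; background 0.764% of tested rows). H2-Aa, a class II alpha chain gene, had 2.53 and 2.54 RPKM in Naa10-KO, against 4.99 and 4.07 RPKM in WT (log2 difference -0.64, SE 0.14, limma adjusted p = 0.136). H2-Oa, a chain of the class II modulator H2-O, had 0.693 and 1.57 RPKM in Naa10-KO, against 2.01 and 2.33 RPKM in WT (limma adjusted p = 0.260). Ctss, a lysosomal protease that trims the invariant chain, had 4.91 and 3.82 RPKM in Naa10-KO, against 1.41 and 2.19 RPKM in WT (limma adjusted p = 0.140).

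Ligands of natural killer cell receptors gave 3 tested rows with 0 past the threshold. The joined row of H60b and Raet1a to Raet1e, which are ligands of the activating receptor NKG2D, had 15.7 and 8.42 RPKM in Naa10-KO, against 10.0 and 9.79 RPKM in WT (limma adjusted p = 0.717). Pvr had 10.4 and 7.79 RPKM in Naa10-KO, against 8.32 and 7.37 RPKM in WT (limma adjusted p = 0.561). Pvrl2 had 33.9 and 33.4 RPKM in Naa10-KO, against 35.7 and 33.8 RPKM in WT (limma adjusted p = 0.759). The first 2 of these rows were highest in Naa10-KO replicate 1, the library with high fibroblast markers, whose part in this was not tested.

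Genes that lie among the class I genes on chromosome 17 without a role in presentation were lower in 19 and higher in 11 of 30 tested rows, with 0 past the threshold and a median log2 difference of -0.16, against -0.056 over all tested rows. Gabbr1, a GABA receptor gene at the far end of the region, had 3.32 and 6.44 RPKM in Naa10-KO, against 15.2 and 13.8 RPKM in WT (log2 difference -1.45, SE 0.30, limma adjusted p = 0.134). Ppp1r18 had 27.9 and 14.7 RPKM in Naa10-KO, against 11.3 and 11.3 RPKM in WT (limma adjusted p = 0.259). B3galt4 had 6.54 and 4.02 RPKM in Naa10-KO, against 3.00 and 2.29 RPKM in WT (limma adjusted p = 0.208).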
